A study of Homo sapiens with 4 samples.

Results

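The DNA replication machinery was followed through 4 RNA libraries of the human cell line MDA-MB-231, which was derived from a triple-negative breast cancer. It was taken as 48 genes named by symbol from the textbook parts of the replication fork and of origin licensing, and all 48 were listed with a level in each library, out of 11288 genes listed in all 4. The si_LINC00882 library came from cells transfected with a silencer against LINC00882, a long non-coding RNA, and the si_NC library from cells given a negative control silencer. The PABPC1 pulldown library held RNA recovered from cell lysate by an anti-PABPC1 antibody on magnetic beads, PABPC1 being the protein that coats mRNA poly(A) tails in the cytoplasm, and the input library held the RNA of the lysate. All cells were grown in L15 medium with serum. No IgG pulldown library was analysed here, and LINC00882 was not analysed here either, so how far it was silenced is not known from these values. Each group was 1 library. There is therefore no replicate error and no test, and every value below describes these libraries.

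Replication starts where the origin recognition complex (ORC1 to ORC6), CDC6 and CDT1 load the ring-shaped MCM2 to MCM7 helicase onto DNA. CDC45 and the GINS complex then join the ring and switch it on. Polymerase alpha with its primase lays down primers, polymerases epsilon and delta extend them, and the sliding clamp PCNA, placed by replication factor C, holds the polymerases on the template. Many of these genes are known targets of the E2F transcription factors and peak around the start of S phase, so their mRNAs are often read as a mark of proliferating cells. Bulk RNA cannot tell fewer cells in S phase from less RNA per cell.

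The promoters of these genes, which their choice by name did not use, were searched for E2F sites. RefSeq windows on GRCh38.p14, from 250 bases before to 50 bases after the start of transcription, were found for 42 of the 48 genes, all but MCM4, MCM5, GINS4, POLD3, RPA2 and RPA3. They were searched on both strands for 4 forms of the E2F site, TTTGGCGC, TTTCCCGC, TTTGCCGC and TTTCGCGC, of which TTTCGCGC on one strand can overlap TTTGGCGC on the other. A match was present in at least 1 window of 19 of the 42 genes (45.2%), against 6.87% of the 8891 genes listed in all 4 libraries that had a window and 3.99% of all 27305 RefSeq genes with one. Matches began upstream of the start in ORC3, CDT1, MCM3, MCM6, MCM7, POLA1, POLA2, POLE, POLE2, PCNA, RFC3, LIG1, GINS2, GINS3, GMNN and UHRF1, and past it in CDC6, GINS1 and MCM2. The CCAAT box was also present in 25 of the 42 genes (59.5%), against 43.8% of the listed genes. A match is a string of letters and not a site shown to be bound. The 250 bases before the start of 5 of these genes are shown, with E2F matches that lie wholly within them in capitals. For UHRF1, with 3 start sites, and PCNA, with 2, only the outermost start is shown. A second MCM3 match, beginning at -4 from the start, runs past it and is not in capitals. A second UHRF1 match lies in the window of another start. UHRF1 had the highest ratio of the pulldown pair, MCM6 had 4 matches in 2 overlapping pairs, MCM3 was the most abundant helicase subunit, PCNA was the most abundant of all 48 mRNAs, and CDT1 encodes the loading factor that geminin blocks.
UHRF1 (chr19:4909251-4909500, plus strand): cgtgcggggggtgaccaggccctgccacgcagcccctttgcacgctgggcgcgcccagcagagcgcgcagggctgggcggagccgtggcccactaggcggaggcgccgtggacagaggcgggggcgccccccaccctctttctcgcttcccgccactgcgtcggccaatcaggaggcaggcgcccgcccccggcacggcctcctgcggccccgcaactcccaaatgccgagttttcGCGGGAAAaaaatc
MCM6 (chr2:135876444-135876693, minus strand): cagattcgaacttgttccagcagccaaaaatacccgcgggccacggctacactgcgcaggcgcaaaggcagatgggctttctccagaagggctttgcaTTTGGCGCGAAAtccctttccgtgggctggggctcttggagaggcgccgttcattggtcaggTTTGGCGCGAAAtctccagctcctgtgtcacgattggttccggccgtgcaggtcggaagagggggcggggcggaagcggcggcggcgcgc
MCM3 (chr6:52284743-52284992, minus strand): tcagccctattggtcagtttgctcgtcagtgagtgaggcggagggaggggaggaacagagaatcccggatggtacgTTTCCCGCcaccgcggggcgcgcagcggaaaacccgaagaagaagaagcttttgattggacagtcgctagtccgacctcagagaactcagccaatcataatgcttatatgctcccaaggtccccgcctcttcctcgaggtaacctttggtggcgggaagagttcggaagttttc
PCNA (chr20:5126623-5126872, minus strand): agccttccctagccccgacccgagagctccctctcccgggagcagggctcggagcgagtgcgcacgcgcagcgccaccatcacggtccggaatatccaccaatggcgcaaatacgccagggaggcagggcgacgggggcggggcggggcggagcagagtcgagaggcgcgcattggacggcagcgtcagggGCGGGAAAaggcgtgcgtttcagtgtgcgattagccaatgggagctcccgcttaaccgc
CDT1 (chr16:88803539-88803788, plus strand): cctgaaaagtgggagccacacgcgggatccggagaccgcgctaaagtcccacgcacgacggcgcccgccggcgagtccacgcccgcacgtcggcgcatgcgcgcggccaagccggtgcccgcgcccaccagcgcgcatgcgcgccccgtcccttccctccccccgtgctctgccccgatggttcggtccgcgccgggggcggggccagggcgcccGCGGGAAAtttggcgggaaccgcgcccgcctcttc

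Of the 48 mRNAs, 44 were above the median of all listed genes in si_LINC00882, 44 in si_NC, 40 in the pulldown and 36 in input. FPKM are scaled to transcript length, which lets genes be set beside each other only roughly, since how RNA was selected is not stated. The median level was 12.7 FPKM in si_LINC00882 and 13.0 FPKM in si_NC, where it exceeded 73.1% and 73.4% of all listed genes. It was 11.3 FPKM in the pulldown and 8.26 FPKM in input, above 66.6% and 66.9% of listed genes. PCNA was the highest in each library, at 111 FPKM in si_LINC00882, 134 in si_NC, 128 in the pulldown and 184 in input. The lowest was GINS4, a GINS subunit, in si_LINC00882 (2.08 FPKM) and si_NC (1.57), the polymerase alpha subunit POLA2 in the pulldown (3.68) and the polymerase epsilon catalytic subunit POLE in input (1.02). Since no library held any of the 48 below 1 FPKM, all 48 entered each comparison.

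**Figure D1:**
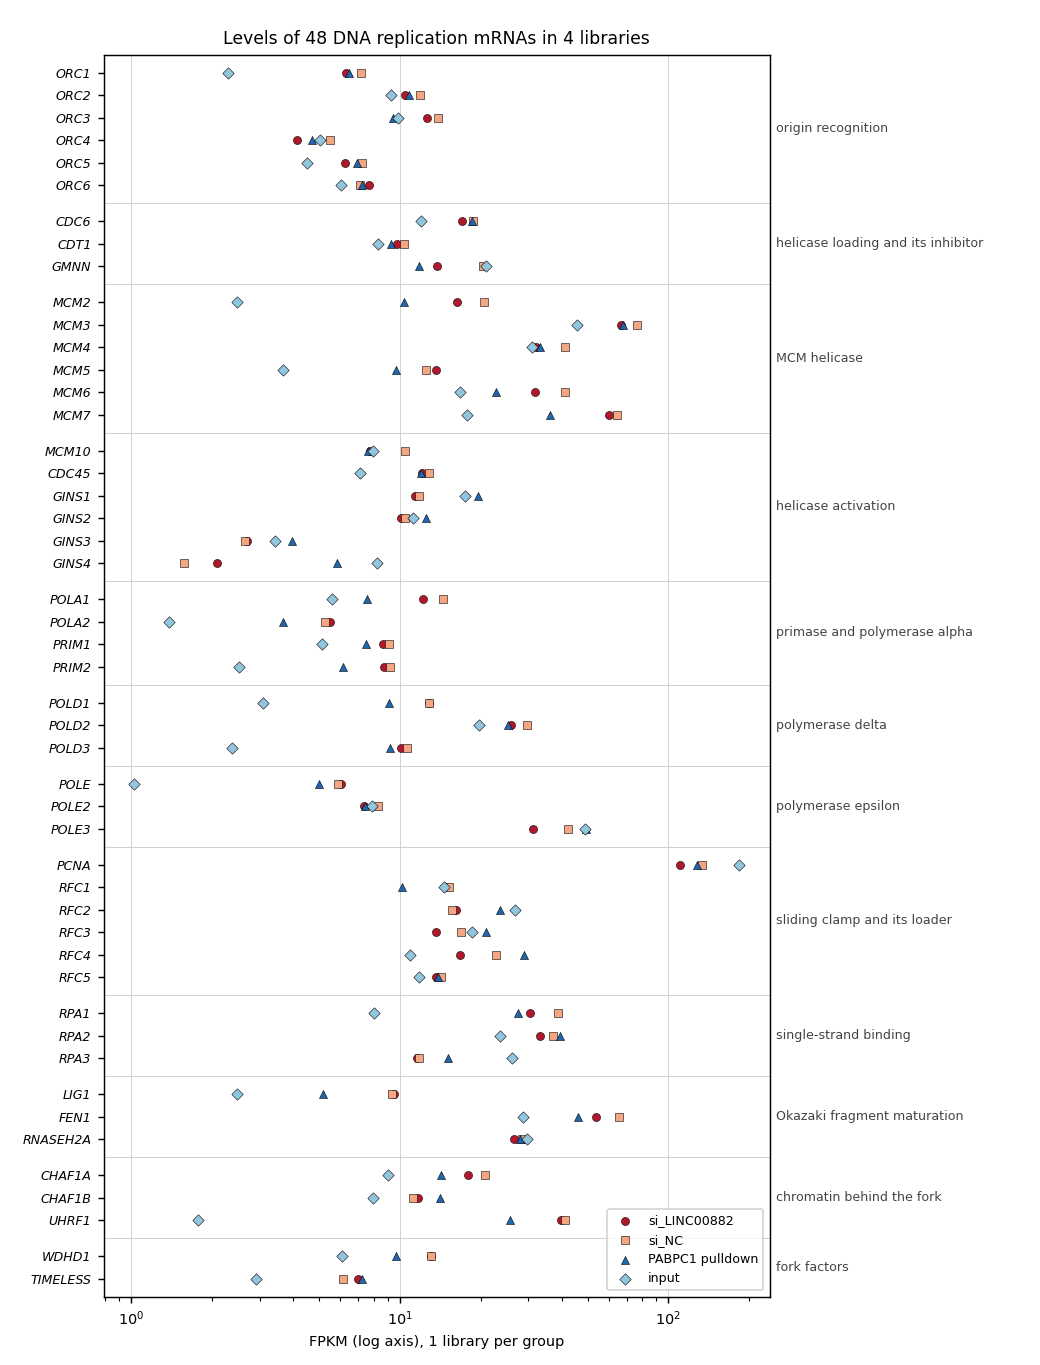
FPKM (log axis) of the 48 genes, listed down the page by role, with 1 symbol per library. Most symbols of a gene lie close together apart from input. Input is far to the left for UHRF1, MCM2, MCM5, POLE, POLD1, POLD3 and RPA1 and far to the right for RPA3. For GINS4, input and the pulldown both lie to the right of si_LINC00882 and si_NC.

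Across the libraries as a whole, the summed FPKM ran from 197844 in the pulldown to 338894 in input. Mitochondrially encoded mRNAs made up 19.3% of the sum in si_LINC00882, 16.3% in si_NC, 3.08% in the pulldown and 47.3% in input. The cell line was checked against its markers. All 7 mesenchymal and invasive markers (VIM, CD44, AXL, CAV1, MMP14, FOSL1 and PLAU) were listed in all 4 libraries, with sums of 1063 FPKM in si_LINC00882, 1077 in si_NC, 1122 in the pulldown and 824 in input. Of 7 luminal breast markers ESR1, PGR, FOXA1 and CDH1 were not listed and KRT19, GATA3 and EPCAM were, and the sum of the list ran from 63.5 FPKM in si_LINC00882 to 80.5 in the pulldown. Of 5 leukocyte markers only CD14 was listed, at 0.663 FPKM in the pulldown and 0.129 in input.

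The silencer pair asks which mRNAs differ when LINC00882 is silenced. Every replication mRNA in si_LINC00882 lay within 1.5-fold of its level in si_NC. Log2 ratios are of FPKM plus 1, so the change of low genes is understated, and a gene entered a comparison where 1 of its 2 libraries had at least 1 FPKM. None of the 48 was 2-fold higher or lower in si_LINC00882, where 0.859% of 10478 genes were 2-fold higher and 1.15% were 2-fold lower. None reached 1.5-fold either, where 6.80% of genes did in either direction. Small differences leaned one way, with 37 of the 48 lower and 11 higher in si_LINC00882 than in si_NC, while 51.1% of all genes compared were lower. The median log2 ratio of the 48 was -0.09 and that of all genes -0.01. The middle of their distribution ran from a lower quartile of -0.24 to an upper quartile of -0.02, against -0.16 and 0.15 for all genes. Together the 48 summed to 924 FPKM in si_LINC00882 and 1058 in si_NC.

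**Figure D2:**
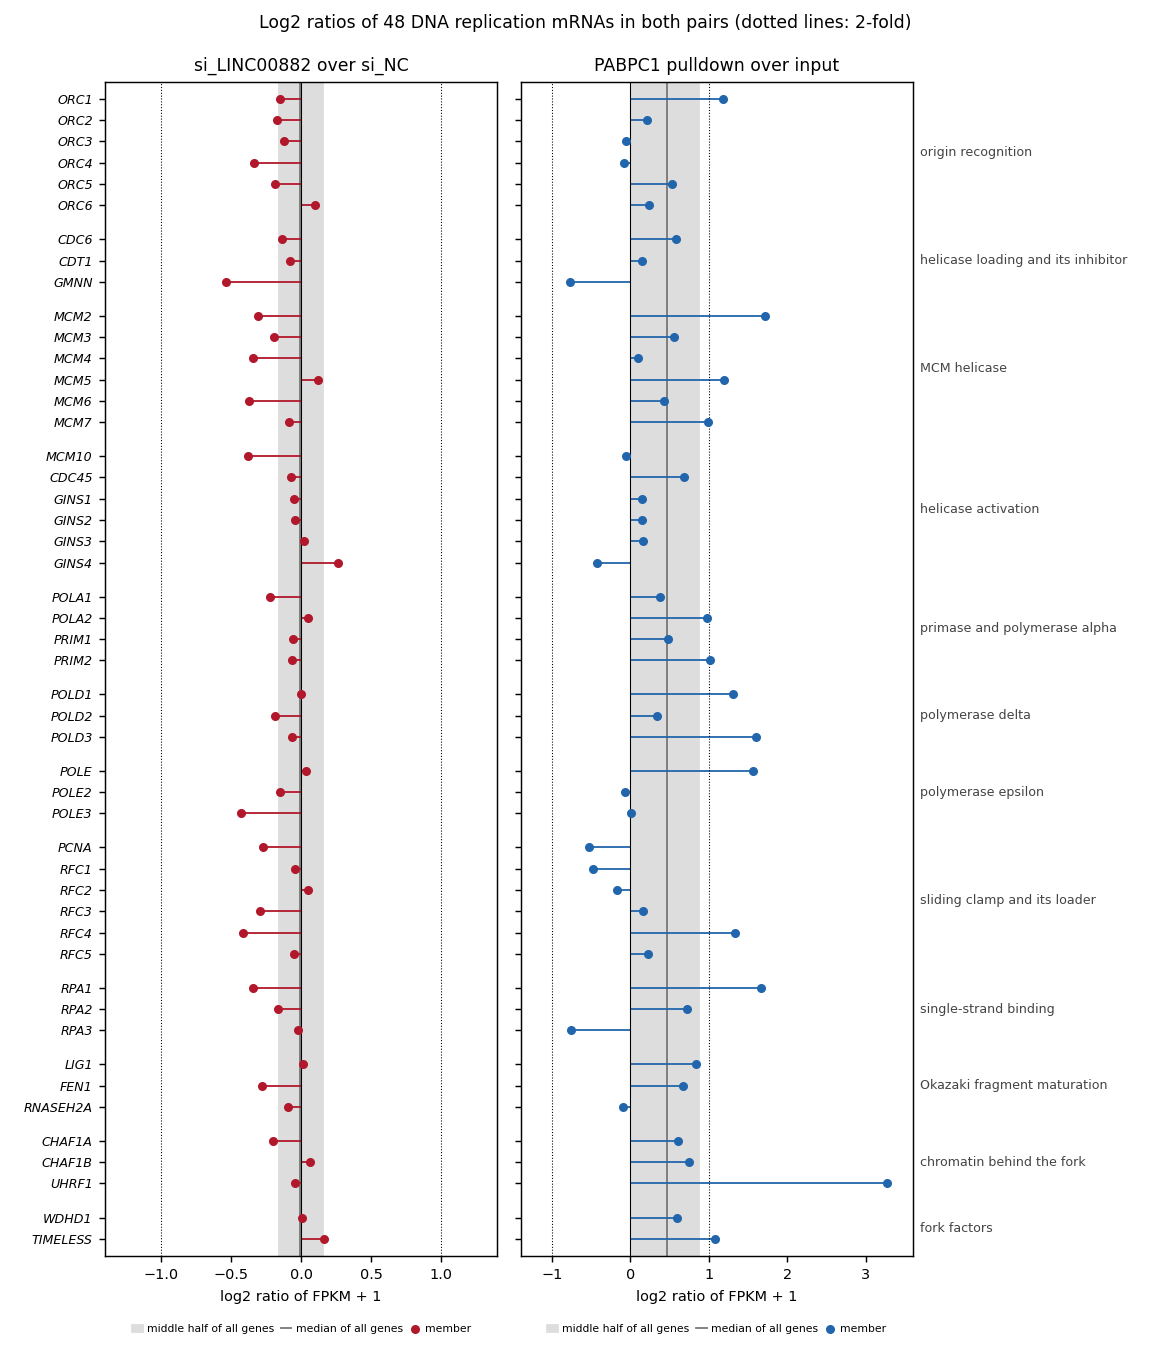
Log2 ratio of FPKM + 1 for each of the 48 genes, si_LINC00882 over si_NC on the left and PABPC1 pulldown over input on the right. Dotted lines mark 2-fold, the grey band the lower to upper quartile of all genes and the grey line their median. Every point on the left lies inside the dotted lines, and 11 points on the right lie beyond the upper one.

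Among the licensing factors, the lowest ratio belonged to GMNN, which encodes geminin, the protein that binds CDT1 and blocks helicase loading. GMNN stood at 13.7 FPKM in si_LINC00882 and 20.4 in si_NC, a log2 ratio of -0.53, and 4.35% of all genes compared lay at or below that ratio. CDT1, its target, stood at 9.71 FPKM in si_LINC00882 and 10.3 in si_NC (-0.08). The level of GMNN was thus 1.42 times that of CDT1 in si_LINC00882 and 1.97 times in si_NC. CDC6, the ATPase that recruits the helicase to origins, stood at 17.0 and 18.7 FPKM (-0.14). Of the origin recognition subunits, 5 of 6 were lower, where 51.1% of all genes compared were. The 5 ran from ORC4 at 4.13 FPKM in si_LINC00882 and 5.47 in si_NC (-0.33) to ORC3 (-0.13), and ORC6 was higher (0.10). ORC4 and ORC3 each overlap another listed gene.

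In the helicase, 5 of the 6 MCM subunits were lower in si_LINC00882, where 51.1% of all genes compared were. The median log2 ratio was -0.26 for the 6 subunits and -0.01 for all genes. MCM6 stood at 31.8 FPKM in si_LINC00882 and 41.4 in si_NC (-0.37), MCM4 at 32.1 and 41.1 (-0.35) and MCM2 at 16.4 and 20.6 (-0.31). MCM5 was the exception, with 13.6 FPKM in si_LINC00882 and 12.5 in si_NC (0.12). MCM10, which helps activate the loaded helicase, stood at 7.75 and 10.4 FPKM (-0.38). The 4 GINS genes lay between -0.05 and 0.26, the upper end being GINS4, the highest ratio of all 48, at only 2.08 FPKM in si_LINC00882 and 1.57 in si_NC. CDC45, the partner of GINS on the helicase, stood at 12.1 and 12.8 FPKM (-0.08).

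Polymerase and clamp genes spread from -0.43 to 0.05. POLE3, a small histone-fold subunit of polymerase epsilon, stood at 31.3 FPKM in si_LINC00882 and 42.4 in si_NC (-0.43), and overlaps another listed gene. The catalytic subunits differed less, with POLE at 6.04 and 5.87 FPKM (0.03), POLD1 at 12.8 and 12.9 (below 0.01 in size) and POLA1 at 12.2 and 14.4 (-0.22). RFC4, a clamp loader subunit, stood at 16.8 FPKM in si_LINC00882 and 22.7 in si_NC (-0.42), RFC3 at 13.6 and 16.9 (-0.30) and PCNA at 111 and 134 (-0.27). The other loader subunits, RFC1, RFC2 and RFC5, lay between -0.05 and 0.05.

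Among single-strand binding and maturation factors, RPA1, the large DNA-binding subunit of replication protein A, stood at 30.5 FPKM in si_LINC00882 and 38.9 in si_NC (-0.34). FEN1, the nuclease that trims Okazaki fragment flaps, stood at 53.8 and 65.5 FPKM (-0.28), while LIG1, the ligase that seals them, stood at 9.47 and 9.37 (0.01). Of the genes that act on chromatin behind the fork, UHRF1, which guides maintenance DNA methylation, stood at 40.0 and 41.3 FPKM (-0.04). The histone chaperone subunits stood at 18.0 and 20.8 FPKM for CHAF1A (-0.20) and at 11.7 and 11.1 for CHAF1B (0.06). At the fork, WDHD1, the link between helicase and polymerase alpha, stood at 13.1 and 13.0 FPKM (0.00), and the fork protection gene TIMELESS at 6.98 and 6.12 (0.17).

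Genes with and without an E2F match had similar ratios in this pair. The 19 with a match had a median log2 ratio of -0.13 and 15 were lower in si_LINC00882. The 23 without had a median of -0.09 and 18 were lower. Of all genes compared 51.1% were lower, with a median of -0.01. Among the E2F transcription factors, E2F1 stood at 48.6 FPKM in si_LINC00882 and 38.8 in si_NC (0.32), and E2F3 at 6.44 and 11.4 (-0.73). E2F2 (-0.33), E2F7 (0.03) and E2F8 (0.13) lay between them.

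Other genes of the replication pathway, a list of regulators, checkpoint and chromatin factors outside the 48, were also within 2-fold with 1 exception. Of 53 measured, none was 2-fold higher and 1 was 2-fold lower, FAM111A, a protease that acts at blocked forks, at 1.87 FPKM in si_LINC00882 and 4.76 in si_NC (-1.004), named after its values were seen. The list's median was -0.06, and 37 of the 53 were lower. All genes compared had a median of -0.01, with 51.1% lower, 0.859% 2-fold higher and 1.15% 2-fold lower. The ratios named next are among the 44 of the 53 that reached 5 FPKM in either library. Besides E2F3, the lowest belonged to MCMBP, an MCM-binding protein (23.7 FPKM in si_LINC00882 and 32.8 in si_NC, -0.45). Next came DSCC1, a subunit of an alternative clamp loader (9.23 and 12.3, -0.38), and the checkpoint mediator CLSPN (14.8 and 19.3, -0.36). The highest of the 44 belonged to the ubiquitin ligase scaffold CUL4A (17.0 and 12.2, 0.45) and CDK2, the kinase of S phase entry (13.3 and 10.4, 0.33). They were followed by E2F1 and the clamp loader gene CHTF18 (5.75 and 4.83, 0.21).

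The pulldown pair asks which mRNAs are recovered with PABPC1. The pulldown library held replication mRNAs at ratios to input like those of mRNAs in general. Of the 48, 11 were 2-fold higher than in input (22.9%), where 19.6% of 10856 genes were, and none was 2-fold lower, where 2.37% were. At 1.5-fold, 20 were higher (41.7%), against 42.0% of all genes, and 2 were lower, against 6.79%. The median log2 ratio was 0.45 for the 48 and 0.47 for all genes. With the pair centred on the median of all genes, 5 of the 48 were 2-fold higher and 2 were 2-fold lower, where 7.39% of all genes were higher and 7.65% lower. The share of mitochondrial mRNAs moves with this comparison. With both libraries rescaled without those mRNAs, 9 of the 48 were 2-fold higher, where 16.7% of 10828 genes were, and the median was 0.36 for the 48 and 0.38 for all genes.

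**Figure D3:**
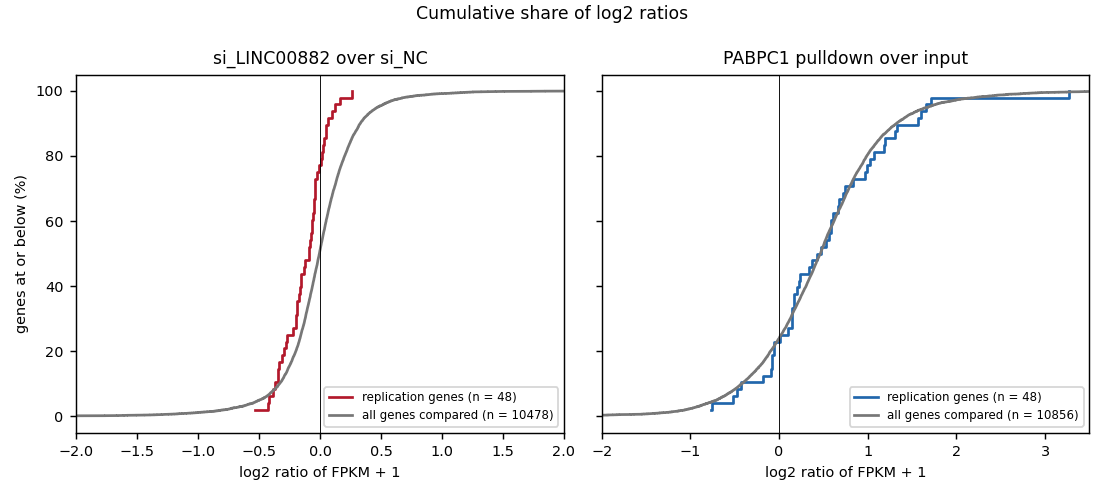
Cumulative share of genes (%) against log2 ratio of FPKM + 1 for the 48 replication genes (colour) and all genes compared (grey), si_LINC00882 over si_NC on the left and PABPC1 pulldown over input on the right. On the left the replication curve is narrower and lies to the left of the grey curve over most of its range, and on the right the 2 curves run together.

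UHRF1 had the highest ratio to input of the 48. It stood at 25.6 FPKM in the pulldown and 1.76 in input (3.27), and 0.359% of all genes compared lay at or above that ratio. In the transfected cells UHRF1 ranked 5th of the 48 in si_LINC00882, at 40.0 FPKM, and 7th in si_NC, at 41.3 FPKM, so input held by far its lowest level. Against si_NC the pulldown level was lower (-0.67). CHAF1A and CHAF1B, subunits of the chaperone that deposits histones on new DNA, stood at 14.3 and 14.1 FPKM in the pulldown, against 8.998 and 7.96 in input (0.61 and 0.75).

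The helicase subunits had ratios to input above 0, as did 76.1% of all genes, with a median of 0.78 and unequal sizes. Against si_NC all 6 were below 0 in the pulldown, as were 38.5% of all genes. The median of the 6 was -0.57 and that of all genes 0.16. MCM2 stood at 10.4 FPKM in the pulldown and 2.47 in input (1.71), MCM5 at 9.71 and 3.67 (1.20) and MCM7 at 36.3 and 17.8 (0.99). MCM7 overlaps AP4M1. MCM4 stood at 33.3 and 31.1 FPKM (0.10), and its ratio was -0.0025 with both libraries rescaled without mitochondrial mRNAs. The 6 mRNAs, whose products form one ring in equal numbers, spanned 4.88-fold between the highest and the lowest in si_LINC00882, 6.13-fold in si_NC, 6.97-fold in the pulldown and 18.4-fold in input. MCM3 was the highest in all 4 libraries and MCM5 the lowest in 3 of them, with MCM2 the lowest in input. Of the origin recognition and loading genes, ORC1, the ATPase subunit that varies with the cell cycle, had the highest ratio, at 6.47 FPKM in the pulldown and 2.28 in input (1.19). CDC6 stood at 18.5 and 12.0 FPKM (0.58) and CDT1 at 9.28 and 8.27 (0.15).

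GMNN lay at the other end, with 11.8 FPKM in the pulldown and 20.9 in input (-0.77), the lowest ratio of the 48, and 4.29% of all genes lay at or below it. Against si_NC, which held 20.4 FPKM, the ratio was -0.74. Its level was 1.27 times that of CDT1 in the pulldown and 2.53 times in input. GMNN had the lowest ratio of the 48 in both pairs, which share no library, but not with every setting or control. With a pseudocount of 5 FPKM the pulldown ratio of RPA3 (-0.63) was below that of GMNN (-0.62). With the controls exchanged, 5 genes were below GMNN in the pulldown over si_NC, the lowest being MCM2 (-0.92), and 6 in si_LINC00882 over input, the lowest being GINS4 (-1.59, against -0.57 for GMNN).

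Against input, polymerase subunits were split within their own complexes. The catalytic POLE stood at 4.98 FPKM in the pulldown and 1.02 in input (1.56), while its partners POLE2 (7.40 and 7.86, -0.08) and POLE3 (49.2 and 48.8, 0.01) were nearly equal. POLD3 stood at 9.18 and 2.37 FPKM (1.60) and the catalytic POLD1 at 9.10 and 3.09 (1.303), while POLD2 stood at 25.3 and 19.8 (0.34). Against si_NC the pulldown ratios were closer together, at -0.20 for POLE, -0.15 for POLE2 and 0.21 for POLE3. They were -0.46 for POLD1, -0.23 for POLD2 and -0.19 for POLD3. POLE was also the lowest of the 48 in input. The level of POLE3 was 5.18 times that of POLE in si_LINC00882, 7.23 times in si_NC, 9.88 times in the pulldown and 47.7 times in input. In polymerase alpha, the primase subunit PRIM2, which overlaps RAB23, stood at 6.14 and 2.52 FPKM (1.02), POLA2 at 3.68 and 1.38 (0.97), PRIM1 at 7.50 and 5.11 (0.48) and POLA1 at 7.56 and 5.60 (0.38).

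**Figure D4:**
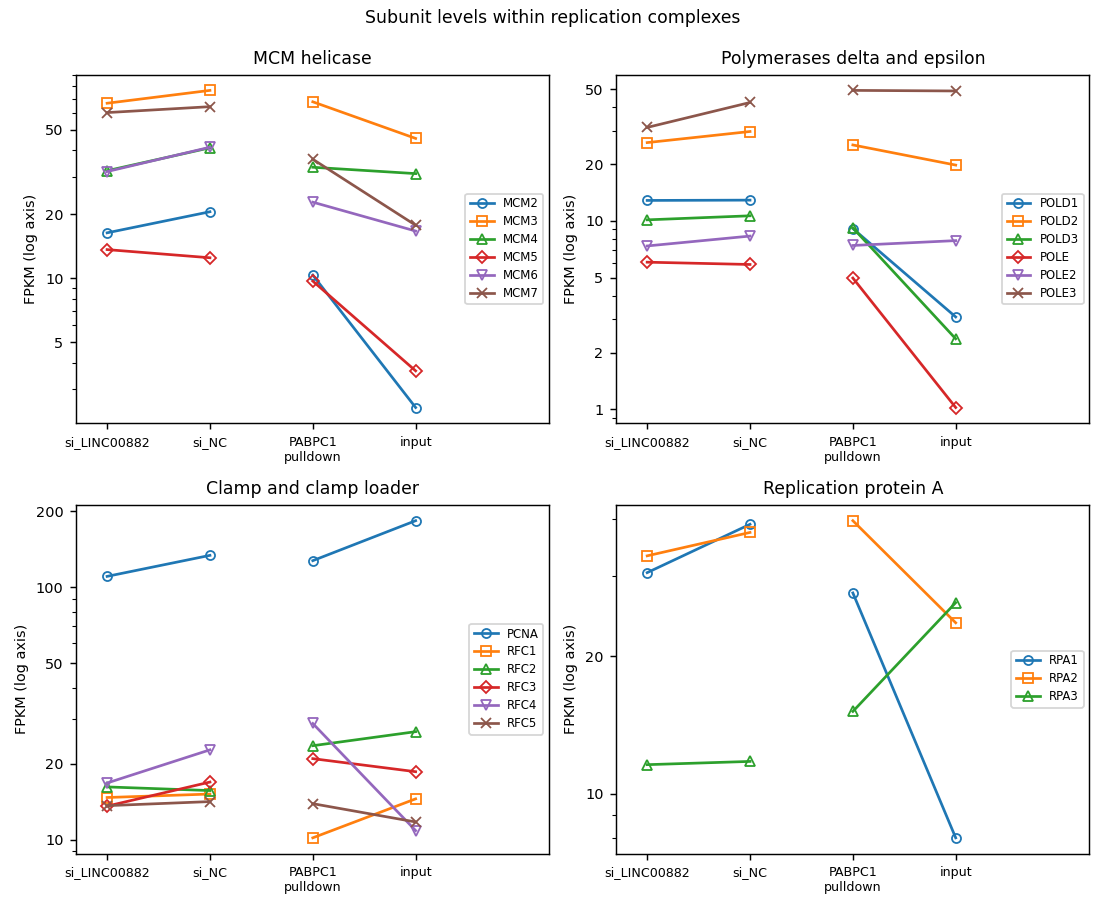
FPKM (log axis) of the subunits of 4 groups of replication proteins in the si_LINC00882, si_NC, PABPC1 pulldown and input libraries, with a line joining the 2 libraries of a pair. Lines of the silencer pair are nearly flat, and those of the pulldown pair are often steep, with MCM2, MCM5, POLE, POLD1, POLD3, RFC4 and RPA1 far lower in input.

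The clamp and its loader held members on both sides of input. RFC4 stood at 28.9 FPKM in the pulldown and 10.9 in input (1.33), whereas PCNA stood at 128 and 184 (-0.52), RFC1, the large loader subunit, at 10.2 and 14.5 (-0.47) and RFC2 at 23.6 and 26.8 (-0.18). RFC3 and RFC5 were slightly higher (0.16 and 0.22). Against si_NC, PCNA (-0.07), RFC1 (-0.53) and RFC5 (-0.03) were below 0, and RFC2 (0.56), RFC3 (0.29) and RFC4 (0.33) were above it. PCNA ranked 221st of 11695 listed genes in si_LINC00882 and 169th in si_NC, and 181st of 11712 in the pulldown and 131st in input. Replication protein A was split against input as well. RPA1 stood at 27.5 FPKM in the pulldown and 8.01 in input (1.66) and RPA2 at 39.6 and 23.7 (0.72), while RPA3, the smallest subunit, stood at 15.1 and 26.2 (-0.75). Against si_NC the order was reversed, at -0.48 for RPA1, 0.08 for RPA2 and 0.34 for RPA3. RPA3 overlaps UMAD1, so how fragments were divided between them is uncertain.

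Among the remaining roles, FEN1 stood at 46.1 FPKM in the pulldown and 28.7 in input (0.67) and LIG1 at 5.19 and 2.48 (0.83). RNASEH2A, the catalytic subunit of the nuclease that removes RNA from RNA-DNA hybrids, was nearly level at 27.9 and 29.9 (-0.09). TIMELESS stood at 7.23 and 2.91 FPKM (1.07) and WDHD1 at 9.69 and 6.10 (0.59). In the GINS complex, GINS1, GINS2 and GINS3 lay between 0.15 and 0.16, and GINS4 stood at 5.85 and 8.25 FPKM (-0.43). CDC45 stood at 12.0 and 7.10 FPKM (0.68). Of the 19 genes with an E2F match in the promoter, 3 were 2-fold higher than in input, with a median of 0.38. Of the 23 without, 6 were, with a median of 0.52. Of all genes compared 19.6% were, with a median of 0.47.

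The rest of the pathway list had 9 of 53 genes 2-fold higher in the pulldown (17.0%) and 3 2-fold lower (5.66%), with a median of 0.48. Of all genes compared 19.6% were 2-fold higher and 2.37% 2-fold lower, with a median of 0.47. The ratios named next are among the 45 of the 53 that reached 5 FPKM in either library. The highest belonged to CUL4A (17.0 FPKM in the pulldown and 2.31 in input, 2.44) and the repressor E2F8 (8.48 and 1.25, 2.08). Next came the fork repair factor TONSL (5.90 and 1.54, 1.44) and MCMBP (31.1 and 13.7, 1.13). The lowest belonged to FAM111A (2.097 and 9.04, -1.70), the topoisomerases TOP2A (54.3 and 149, -1.44) and TOP1 (45.0 and 95.0, -1.06), and CHTF8 (4.74 and 10.2, -0.96).

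The ratios of the pulldown depended on the control library it was set against. Input and si_NC had neither a knockdown nor a pulldown, yet of the 48, 16 were 2-fold lower in input than in si_NC (33.3%, against 19.2% of 10511 genes) and 2 were 2-fold higher (4.17%, against 5.95%). The median was -0.59 for the 48 and -0.29 for all genes. UHRF1 (-3.93), MCM2 (-2.64) and RPA1 (-2.15) were the furthest below si_NC, and GINS4 (1.85) and RPA3 (1.09) the furthest above. Input was handled as lysate and the transfected cells were not, so handling, transfection and library cannot be told apart here. With input in place of si_NC, 14 of the 48 were 2-fold higher in si_LINC00882 (29.2%, against 19.1% of 10504 genes) and 2 were 2-fold lower (4.17%, against 5.99%). With si_NC in place of input, a library of another table and treatment, only GINS4 of the 48 was 2-fold higher in the pulldown (2.08%, against 7.16% of 10810 genes) and none was 2-fold lower, against 2.48%. The comparison shares the pulldown library with the first, and its median was -0.18 for the 48 and 0.16 for all genes. Of the 11 genes 2-fold above input, RFC4 (0.33) and TIMELESS (0.21) were above si_NC as well, and ORC1, MCM2, MCM5, PRIM2, POLD1, POLD3, POLE, RPA1 and UHRF1 were below it.

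Of the 48 genes, 10 overlap another listed gene in RefSeq, namely ORC1, ORC3, ORC4, MCM7, GINS2, PRIM2, POLE3, RFC5, RPA3 and CHAF1A. The other 38 had a median of -0.09 in the silencer pair, with 27 lower in si_LINC00882 and none past 2-fold. All genes compared had a median of -0.01, with 51.1% lower, 0.859% 2-fold higher and 1.15% 2-fold lower. In the pulldown pair the 38 had a median of 0.50, with 9 at 2-fold higher than input and none 2-fold lower. All genes compared there had a median of 0.47, with 19.6% 2-fold higher and 2.37% 2-fold lower.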

How the data were processed

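The files deposited by the authors give FPKM, per the file headers, with 1 column for 1 library. FPKM count fragments per kilobase of transcript and are scaled to all mapped fragments. The submitters' processing notes list StringTie 1.3.3 and HISAT2 2.1.0, cutadapt 1.17, FastQC 0.11.7 and the build GRCh37, with no role or order. How RNA was selected, which annotation was used and how genes were filtered is not stated in these sources. FPKM are not counts and depth is unknown, so values carry no counting interval.

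Groups came from the sample labels. Log2 ratios within a pair used FPKM plus a pseudocount of 1, for genes reaching 1 FPKM in at least 1 of its libraries. No p-value was computed, since each group had 1 library. Genes at or past 2-fold were counted beside the same count over all genes compared. The 48 genes, their roles and the other lists were chosen with earlier results of these data known. All 48 may be named. A marker gene of the cell line is not reported here. Of the other pathway genes, the 4 highest and 4 lowest ratios of each pair were named, where a library reached 5 FPKM. In the silencer pair E2F2, E2F7 and E2F8 were named as well, beside E2F1 and E2F3.

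Symbols were matched to RefSeq genes and promoters of GRCh38.p14, whereas the deposited values are on GRCh37. All 48 matched a gene, and RefSeq served for names, overlaps and promoter sequence only. Alternatives changed the pseudocount (0.1 or 5), the minimum (none or 5 FPKM), the scaling (centred on the median, or rescaled without mitochondrial genes), the size rule (1.5-fold or 3-fold) and the control (exchanged between pairs). The ratio and counting steps were tested on data simulated from genes of at least 5 FPKM in si_NC. That test did not cover lower genes, the promoter search or the overlaps. Scripts ran in Python 3.11.15 with pandas 2.3.3, numpy 2.4.6 and matplotlib 3.10.9.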

Additional observations from a re-analysis of the deposited data

How the results depend on the processing

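With 1 library per group and unknown depth, nothing here separates a difference between conditions from one between libraries. No paired analysis was possible because each group holds 1 library. In the silencer pair, no alternative other than the exchanged control moved the counts at 2-fold or the median of the 48 by 0.1 or more. With input as the control, 14 were 2-fold higher in si_LINC00882, where 19.1% of all genes were, and 2 were 2-fold lower, where 5.99% were. The median of the 48 became 0.47, above 0, and that of all genes was 0.28. The number lower in si_LINC00882 than in si_NC was 36 of 48 when centred or rescaled without mitochondrial genes, and 37 of 46 with a minimum of 5 FPKM. The share of all genes lower was 50% when centred, 49.8% when rescaled and 52.2% with that minimum.

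In the pulldown pair, the 11 genes 2-fold higher became 4 with a pseudocount of 5 (where 5.74% of all genes were higher, median 0.32), 20 at 1.5-fold (with 2 lower), 4 at 3-fold (where 5.89% were), and 5 when centred, with 2 lower and a median of -0.013, where 7.39% of all genes were higher and 7.65% lower. With si_NC as the control 1 was higher, where 7.16% of all genes were, and the median was -0.18, against 0.16 for all genes. Under that control 35 of the 48 were below 0, where 38.5% of all genes were. With input as the control 11 of the 48 were below 0, where 23.9% of all genes were. Of the 11 genes 2-fold higher than input, 9 turned below 0 against si_NC. They were ORC1 (-0.12), MCM2 (-0.92), MCM5 (-0.33), PRIM2 (-0.51), POLD1 (-0.46), POLD3 (-0.19), POLE (-0.20), RPA1 (-0.48) and UHRF1 (-0.67). The cause was not tested. A pseudocount of 0.1, no minimum, a minimum of 5 FPKM and rescaling without mitochondrial genes kept the count 2-fold higher within 1.5 times.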
